A study of Mus musculus with 2 samples.

Results

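The Mir99, Mir100 and Mir125 families comprise 6 mouse microRNA genes: Mir99a, Mir99b, Mir100, Mir125a, Mir125b-1 and Mir125b-2. The rule takes them by gene symbol, and they are 6 of the 1973 genes listed in the count files. All 6 reached the minimum of 10 counts in both libraries, as did 380 genes in all. Small RNA below 30 nucleotides was sequenced from midbrain of B6NCrl mouse embryos at embryonic day 12.5, with the sexes mixed. The tissue of 120 embryos was pooled for replicate 1 and that of 88 for replicate 2. Both belong to 1 group with no treatment or engineered allele given in the labels, so the comparisons are between genes and between the 2 pools, and the spread between single embryos was not measured.

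A microRNA is cut from a hairpin-shaped transcript, and the short mature strand that results guides silencing proteins to messenger RNAs. Target choice rests mainly on the seed, bases 2 to 8 of the mature strand. The miR-99 and miR-100 microRNAs share a seed and are known to repress Mtor, which encodes a growth kinase. The miR-125 microRNAs are the vertebrate counterparts of the worm microRNA lin-4. They are known, with let-7, for repressing Lin28a, an RNA-binding protein of early progenitors, and both lineages are found in neural tissue. In vertebrate genomes a miR-99 or miR-100 gene, a let-7 gene and a miR-125 gene stand side by side in clusters, so that 1 primary transcript can carry all 3 kinds of microRNA.

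The mature strands are shown because they define the families and decide which genes share reads. All 6 genes were found by symbol in the RefSeq table for build GRCm38.p6. The 5p strand comes from the left side of the hairpin and the 3p strand from the right side. Sequences run 5′ to 3′, and capitals mark the seed. The 5p strands of Mir99a, Mir100 and Mir99b carry the seed ACCCGUA, which pairs with UACGGGU in a target.
miR-99a-5p: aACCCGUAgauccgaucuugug
miR-100-5p: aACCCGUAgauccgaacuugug
miR-99b-5p: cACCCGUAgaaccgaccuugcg

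Counting positions from 1 at the 5′ end, miR-99a-5p and miR-100-5p differ by the single substitution U16A, with the miR-99a base first. A read of their first 15 bases alone could not tell them apart. MiR-99a-5p and miR-99b-5p differ by 4 substitutions, A1C, U11A, U16C and U21C. These place 1 difference before the seed and the other 3 after it.

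The 5p strands of Mir125a, Mir125b-1 and Mir125b-2 carry the seed CCCUGAG, which pairs with CUCAGGG in a target.
miR-125a-5p: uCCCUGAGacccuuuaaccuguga
miR-125b-5p: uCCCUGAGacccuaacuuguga

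Mir125b-1 and Mir125b-2 encode the same miR-125b-5p to the last base. The 12 strands of the 6 genes therefore hold 11 distinct sequences. The 3p strands of the 2 Mir125b genes differ by 5 substitutions, G3A, G4A, U7C, C11U and G20C, with the Mir125b-1 base first. Of these, 3 fall within the seed.
miR-125b-1-3p: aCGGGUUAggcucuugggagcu
miR-125b-2-3p: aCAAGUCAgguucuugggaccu

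The identity of the 5p strand matters for the counts. Reads that aligned to more than 1 place were tallied separately and belong to no gene. A read that holds only miR-125b-5p fits both Mir125b genes, and the gene counts must come from reads that aligned to 1 place. MiR-125a-5p differs from miR-125b-5p by an edit distance of 3 after 13 shared bases. No member strand other than miR-125b-5p was identical to a strand of another gene in the RefSeq table.

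Libraries held 4629302 own-strand gene counts in replicate 1 and 2805487 in replicate 2. Multimapping reads were 3589504 and 2242911, or 33.4% of all reads in each. Values are given in CPM, counts per 1000000 own-strand gene counts, and a floor of 3 counts stood at 0.648 and 1.07 CPM. The 6 genes had no read on the opposite strand except 1 at Mir125b-2 in replicate 1. A mature microRNA is read whole, so CPM was compared between genes without division by length. Of 13 brain microRNAs listed, 11 were found by symbol and all 11 had counts in both libraries, with a summed level of 12155 ± 242 CPM (SD, n = 2). The levels were uneven: Mir137, Mir153, Mir219a-2 and Mir219a-1 had means of 3894, 3399, 3042 and 1193 CPM. Mir9-3, Mir128-1 and Mir128-2 had 281, 222 and 96.3 CPM, and the rest of the 11 stood lower. Muscle microRNAs summed to 55.3 ± 4.52 CPM over the 6 found of 7 listed, with Mir1a-1, Mir133a-1 and Mir133a-2 at 0. In bulk tissue, fewer cells of a type and less RNA per cell cannot be told apart.

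The 3 genes with the ACCCGUA seed dominated the own-strand gene counts of the families. Mir99a (ENSMUSG00000065530.1, chr16:77598936-77599000, plus strand, mm10) had 666269 counts in replicate 1 and 398766 in replicate 2, or 143924 and 142138 CPM. It took the first place of all genes in each library by own-strand counts, which leave out multimapping reads. Its mean was 143031 ± 1263 CPM (SD, n = 2), and its nearest neighbour in level, Mir335, stood at 62676 ± 906 CPM with no overlap of the libraries. The Mir99a hairpin is shown because a single pair of strands gave this count, with both mature strands in capitals.
Mir99a hairpin: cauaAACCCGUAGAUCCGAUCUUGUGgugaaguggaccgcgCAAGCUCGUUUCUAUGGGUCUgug

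The files count reads per hairpin and do not separate its 5p and 3p strands. Mir100 (ENSMUSG00000093011.1, chr9:41531425-41531504, plus strand) had 203312 and 127893 counts, or 43919 and 45587 CPM. It ranked 4th in each library, at a mean of 44753 ± 1179.6 CPM (SD, n = 2). Mir100 lay between Mir17 at 59214 ± 8578 CPM and Mir130a at 36147 ± 1967 CPM, and its libraries overlapped those of neither. Mir99b (ENSMUSG00000065396.1, chr17:17830188-17830257, plus strand) had 135164 and 89532 counts, or 29197 and 31913 CPM, and ranked 7th in replicate 1 and 6th in replicate 2. Its mean was 30555 ± 1920.3 CPM (SD, n = 2), and it did not differ beyond the spread from the next gene down, Mir30e, at 29671 ± 1515 CPM.

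The genes with the CCCUGAG seed were lower in both libraries. Mir125a (ENSMUSG00000065479.1, chr17:17830812-17830879, plus strand) had 21413 and 17392 counts, or 4626 and 6199 CPM, with a mean of 5412 ± 1113 CPM (SD, n = 2). It was the highest of the 3 and ranked 47th in replicate 1 and 37th in replicate 2. Mir125b-1 (ENSMUSG00000093354.1, chr9:41581926-41582002, plus strand) had 10176 and 6931 counts, or 2198 and 2471 CPM, with a mean of 2334 ± 193 CPM (SD, n = 2). Mir125b-2 (ENSMUSG00000065472.1, chr16:77646273-77646343, plus strand) had 6156 and 3642 counts, or 1329.8 and 1298 CPM. It was the lowest of the 6, with a mean of 1314 ± 22.4 CPM (SD, n = 2). Both Mir125b genes are read here only through reads placed at 1 site, so their values leave out any read of miR-125b-5p that aligned to both genes. The Mir125b-1 hairpin is shown with both mature strands in capitals: the left strand is common to both genes, and the right strand differs between them.
Mir125b-1 hairpin: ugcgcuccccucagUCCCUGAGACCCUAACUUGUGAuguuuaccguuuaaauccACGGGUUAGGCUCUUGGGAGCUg

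**Figure D1:**
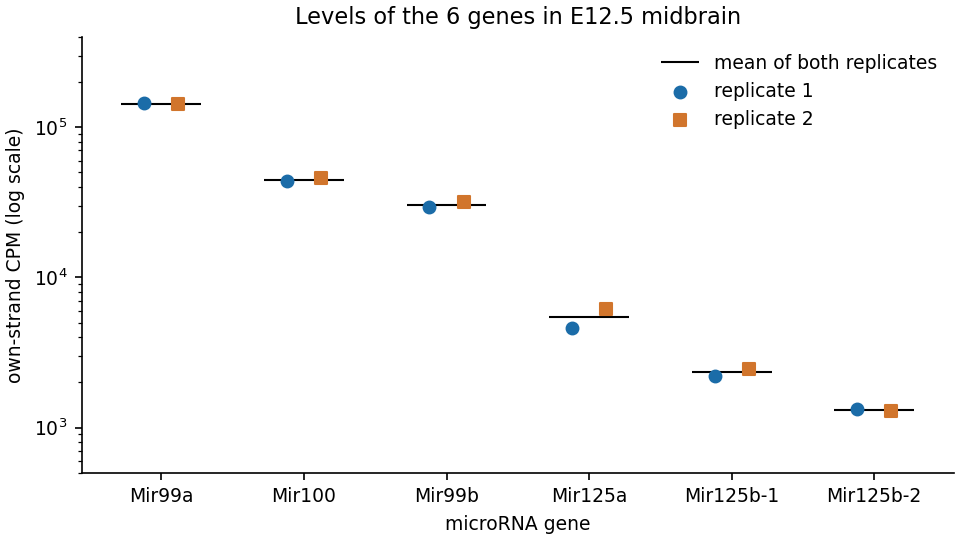
Own-strand CPM (log axis) of the 6 genes in replicate 1 (circles) and replicate 2 (squares), with the mean as a line. The order from Mir99a (143031 CPM) to Mir125b-2 (1314 CPM) is the same in both libraries.

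The order Mir99a, Mir100, Mir99b, Mir125a, Mir125b-1, Mir125b-2 was the same in each library, and no neighbouring members overlapped. Mir99a was 3.28-fold above Mir100 in replicate 1 and 3.12-fold in replicate 2, and the difference of 98278 CPM was the widest of the 5 steps in CPM. Mir100 was 1.504-fold and 1.43-fold above Mir99b, a difference of 14197 CPM or 7.39 times the larger SD. As a ratio, the widest step separated the seed families, with Mir99b 6.31-fold and 5.15-fold above Mir125a. Measured by the SD, the step from Mir125a to Mir125b-1 was the least secure of the 5. The ratios were 2.10 and 2.51, and the difference of 3078 CPM was 2.77 times the larger SD. Both Mir125b counts leave out any miR-125b-5p read that aligned to both genes, while miR-125a-5p is not shared. What this does to the step was not tested. Mir125b-1 was 1.65-fold and 1.90-fold above Mir125b-2. With the level divided by hairpin length, all 6 places were kept.

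Within the whole table the lower members stood among genes of like level. Mir125a did not differ beyond the spread from Mir431 (5439 ± 606 CPM) above it or Mir298 (5249 ± 402 CPM) below it. Mir125b-1 likewise lay between Mir363 (2508 ± 325 CPM) and Mir425 (2273 ± 475 CPM). Mir125b-2 lay between Mir598 (1319 ± 22.5 CPM) and Mir337 (1298 ± 156 CPM). These neighbours were named only for their position in the order of means.

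**Figure D2:**
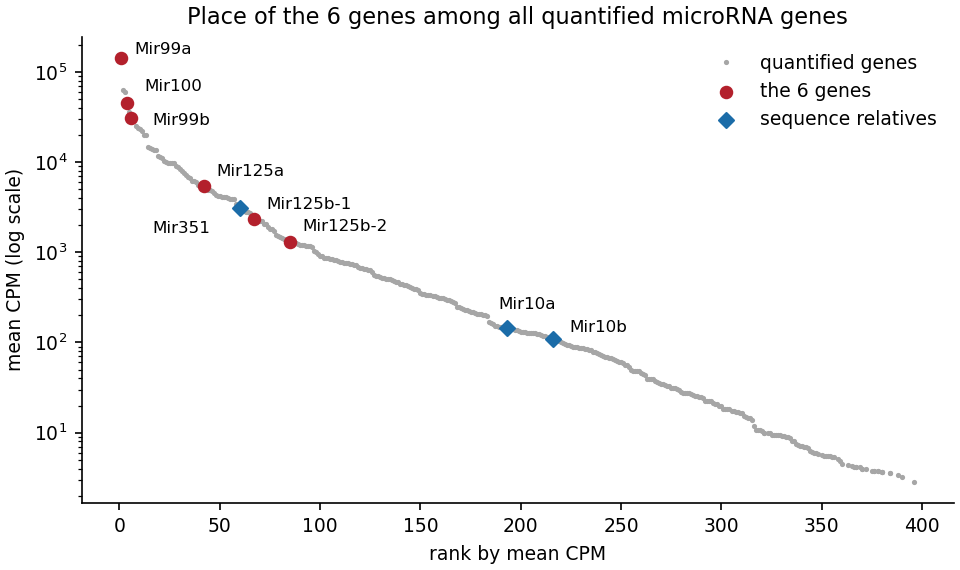
Mean CPM (log axis) of the quantified genes against rank by mean CPM, with the 6 genes as red circles and the sequence relatives Mir351, Mir10a and Mir10b as blue diamonds. In these counts, which leave out multimapping reads, Mir99a stands alone at the top at 143031 CPM, while the 3 Mir125 genes lie at ranks 42 to 85.

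Together the 6 genes held 225194 CPM in replicate 1 and 229606 CPM in replicate 2, or 22.7% ± 0.31 of own-strand gene counts (SD, n = 2). Most of this was 1 gene: Mir99a made up 63.9% of the members' reads in replicate 1 and 61.9% in replicate 2. Mir100 made up 19.7% ± 0.25 and Mir99b 13.4% ± 0.66 (SD, n = 2). The 3 genes of the ACCCGUA seed thus gave 218339 ± 1836.7 CPM, or 96.0% ± 0.51 of the members' reads (SD, n = 2). The 3 Mir125 genes gave 8153 and 9968 CPM, a mean of 9061 ± 1283 CPM, or 3.98% ± 0.51 of the members' reads (SD, n = 2). All these shares are of own-strand gene counts, which leave out any miR-125b-5p read that aligned to both Mir125b genes. Without Mir99a the other 5 members held 84369 ± 4383 CPM (SD, n = 2).

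Summing genes by seed placed the families against others. The sums covered the 916 file genes with strands in the RefSeq table and 1205 seeds, and they counted a gene under the seeds of both strands, since strands were not separated. ACCCGUA ranked first of the 1205 seeds in these own-strand counts. Multimapping reads are left out for all seeds, and the order with them included was not tested. AAGCUCG, carried by the 3p strands of Mir99a and Mir99b, ranked second at 173586 CPM, from the same reads counted again. The third, AAAGUGC of Mir17 and its relatives, gave 121565 ± 19934 CPM over 7 genes. CCCUGAG ranked 30th at 12193 ± 1392 CPM (SD, n = 2) over 6 genes, without any miR-125b-5p read that aligned to both Mir125b genes.

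That last sum takes in relatives outside the 6 genes. Mir351, an X-linked gene whose 5p strand shares the Mir125 seed, had 3055 and 3210 CPM, a mean of 3133 ± 109 CPM (SD, n = 2). It stood below Mir125a, by 1.51-fold in replicate 1 and 1.93-fold in replicate 2, and above Mir125b-1 by 1.39-fold and 1.30-fold. The Mir125b-1 value leaves out any miR-125b-5p read that aligned to both Mir125b genes, and the order with such reads was not tested. Mir6394 and Mir6367 also carry the seed and had 0 counts in both libraries. The strand of Mir351 shares the first 8 bases with miR-125a-5p and then departs from it, at an edit distance of 7.
miR-351-5p: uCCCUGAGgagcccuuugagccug

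The Mir10 genes lie in the Hox clusters, which pattern the body axis, and their 5p strands resemble that of Mir100 with a different seed, ACCCUGU. MiR-10a-5p differs from miR-100-5p by an edit distance of 3 and miR-10b-5p by an edit distance of 4.
miR-10a-5p: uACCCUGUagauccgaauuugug
miR-10b-5p: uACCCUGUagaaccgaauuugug

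Mir10a had 101 and 192 CPM and Mir10b 72.8 and 148 CPM in replicates 1 and 2. Mir100 was 435-fold and 238-fold above Mir10a, and 603-fold and 309-fold above Mir10b. These are ratios of hairpin counts, and the levels of the single strands were not measured.

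The 6 genes pair into 3 clusters, each with a miR-99 or miR-100 gene first, a let-7 gene in the middle and a Mir125 gene last, all on the plus strand. Mir99a, Mirlet7c-1 and Mir125b-2 lie in introns of the non-coding gene Mir99ahg (chr16:77236317-77773427) over a span of 47408 bases. On the opposite strand, Mir99a and Mirlet7c-1 also lie in introns of the protein-coding gene Gm11146. Mir125b-2 also touches an exon of the unconfirmed gene model C130023A14Rik at its last bases. Mir100, Mirlet7a-2 and Mir125b-1 span 50578 bases in introns of the non-coding gene 3110039I08Rik (chr9:41327077-41716994), listed in RefSeq as Mir100hg. Mir125b-1 also lies in an exon of the sense-intronic model Gm28119. The compact cluster of Mir99b, Mirlet7e and Mir125a spans 692 bases within Spaca6 (chr17:17827158-17843009), a protein-coding gene known for a role in sperm-egg fusion. Mir99b lies in an intron of Spaca6, and Mir125a overlaps an exon of it in part.

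The first gene exceeded the last in every cluster, by amounts that differed widely. Mir99a was 108-fold above Mir125b-2 in replicate 1 and 109-fold in replicate 2. Mir100 was 19.98-fold and 18.5-fold above Mir125b-1. Mir99b was 6.31-fold and 5.15-fold above Mir125a. Put the other way, Mir125b-2 stood at 0.919% ± 0.008 of Mir99a, Mir125b-1 at 5.21% ± 0.29 of Mir100 and Mir125a at 17.6% ± 2.53 of Mir99b (SD, n = 2). The 3 ratios did not overlap between clusters in either library. Summed over its 2 members, the Mir99a cluster gave 144345 ± 1286 CPM, the Mir100 cluster 47087 ± 1372 CPM and the Mir99b cluster 35968 ± 3033 CPM (SD, n = 2). The Mir125b counts here leave out any miR-125b-5p read that aligned to both Mir125b genes, while miR-125a-5p is not shared. What this does to the ratios and sums was not tested.

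The let-7 genes in the middle of the clusters were counted at low levels where their mature strand is shared. Mirlet7c-1 had 129 and 165 CPM, below Mir99a by 1120-fold and 863-fold. Mirlet7a-2 had 82.1 and 124 CPM, below Mir100 by 535-fold and 369-fold. The let-7c and let-7a 5p strands each occur in more than 1 gene, as miR-125b-5p does, while let-7e does not. Their sequences show how little separates them.
let-7c-5p: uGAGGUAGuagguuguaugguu
let-7a-5p: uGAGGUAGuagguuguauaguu
let-7e-5p: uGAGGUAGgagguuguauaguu

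The identifier of Mirlet7e was not among those of the count files used here. At its place stands Gm25927 (chr17:17830343-17830459), an annotated microRNA gene on the minus strand that covers it. Gm25927 had no count on its own strand, and 17136 and 13527 counts on the opposite strand, which is the strand of Mirlet7e. Scaled like the other genes, these reads came to 3702 and 4822 CPM, a mean of 4262 ± 792 CPM (SD, n = 2). Mir125a was 1.25-fold and 1.29-fold above them, and Mir99b 7.89-fold and 6.62-fold.

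**Figure D3:**
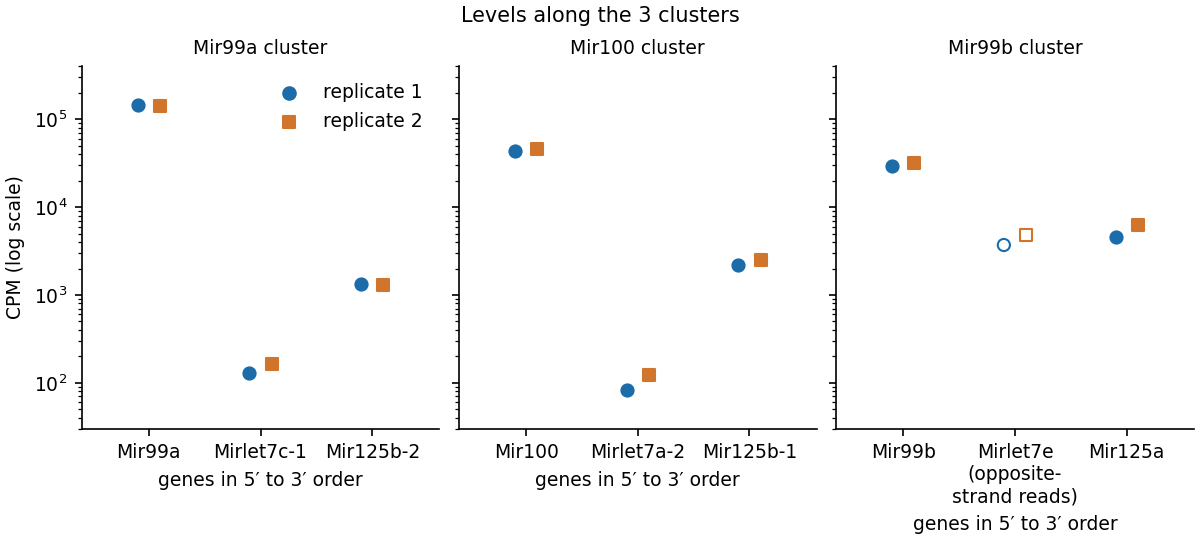
CPM (log axis) along the 3 clusters in genomic order, with replicate 1 as circles and replicate 2 as squares. Open symbols are the opposite-strand reads of Gm25927 at the place of Mirlet7e. The middle and last genes lie far below the first in the Mir99a and Mir100 clusters, and within 10-fold of it in the Mir99b cluster. Reads of shared strands that aligned to more than 1 place are left out.

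Sharing of a strand ran parallel to these levels within the clusters. In the Mir99a and Mir100 clusters both later genes have a 5p strand that another gene also encodes, and in the Mir99b cluster neither does. The own-strand counts of both Mir125b genes came to 16332 in replicate 1 and 10573 in replicate 2, and the multimapping reads were 220-fold and 212-fold more numerous. How many of those reads are miR-125b-5p was not analysed here, and the part of shared strands in the low Mir125b counts was not tested. Among genes that passed the count minimum, 44 of 345 with strands in RefSeq had a strand identical to that of another gene. That minimum itself depends on the level, so the shares were taken over all 916 genes with strands in the table. Their bearing on the Mir125b counts was not tested. Of the 87 with a shared strand, 34.5% had 0 counts in both libraries, 50.6% passed the minimum and 10.3% reached 1000 CPM. Of the other 829, 30.6% had 0 counts, 36.3% passed and 9.89% reached 1000 CPM. A gene was taken as sharing when any of its listed strands was identical to a strand of another gene, whichever strand gave its reads. The shared 5p strand of Mirlet7a-2 was not listed under that gene, so Mirlet7a-2 may stand among those taken as not sharing. The split therefore does not separate genes that lost reads to multimapping from the others. The highest of the 44 quantified genes was Mir92-1, of the Mir17 cluster, at 7224 CPM, and Mir125b-1 and Mir125b-2 were 6th and 7th among them.

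The replicates were then compared gene by gene. Each gene was set against all other own-strand counts in a Fisher's exact test, two-sided, with Benjamini-Hochberg adjustment over the 380 genes. With 1 library on each side, the test sets the difference against counting noise and compares these libraries, not conditions. At an adjusted p below 0.05, 5 of the 6 genes were called, and so were 54.2% of all quantified genes. Higher in replicate 2 were 4 members, against 27.1% of all genes, and lower was 1, against 27.1%. Called with a difference of at least 1.5-fold were 0 of 6 members, against 13.9% of all genes. At an unadjusted p below 0.05, 5 members passed, and so did 217 of the 380 genes, or 57.1%. The median size of the log2 difference was 0.09 for the 6 genes and 0.24 for all 380. It was 0.19 for the 98 genes of at least 1000 CPM, which include the 6.

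The called differences in the ACCCGUA genes were small. Mir99a was lower in replicate 2 by a log2 ratio of -0.02 ± 0.003 (counting SE), or 1.01-fold, with an adjusted p of 5.56e-11 in Fisher's exact test. Mir100 was 1.04-fold higher in replicate 2 and Mir99b 1.09-fold, with adjusted p of 7.14e-26 and 7.17e-96 in the same exact test. Such p-values come from counts of at least 89532 in each library and carry no information on the spread between pools.

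Mir125a differed most. Its log2 ratio was 0.42 ± 0.01 (counting SE), or 1.34-fold higher in replicate 2, with an adjusted p of 2.72e-178 in Fisher's exact test. Of all quantified genes, 73.4% had a smaller absolute log2 ratio. Mir125b-1 was 1.12-fold higher in replicate 2, with an adjusted p of 2.99e-13 in the exact test. Mir125b-2 had a log2 ratio of -0.03 (95% counting interval -0.09 to 0.02) and was not called, at an adjusted p of 0.353 in the exact test. With DESeq2 size factors in place of plain totals its ratio was -0.07, and the exact binomial test then called it lower, at an adjusted p of 0.0366.

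Spread relative to level tells the same members apart. The SD was 0.883% of the mean for Mir99a, 1.70% for Mir125b-2, 2.64% for Mir100, 6.28% for Mir99b, 8.25% for Mir125b-1 and 20.6% for Mir125a. Over the 98 genes of at least 1000 CPM the median was 9.22%. Which gene was steadiest depended on the scaling: with DESeq2 size factors the value was 0.870% for Mir100, 2.65% for Mir99a and 3.47% for Mir125b-2, and on the total of all reads 0.430%, 3.09% and 3.91%. Both genes of the Mir99b cluster had the largest relative spread of their seed family under plain totals and under each of the 5 other scalings tried.

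**Figure D4:**
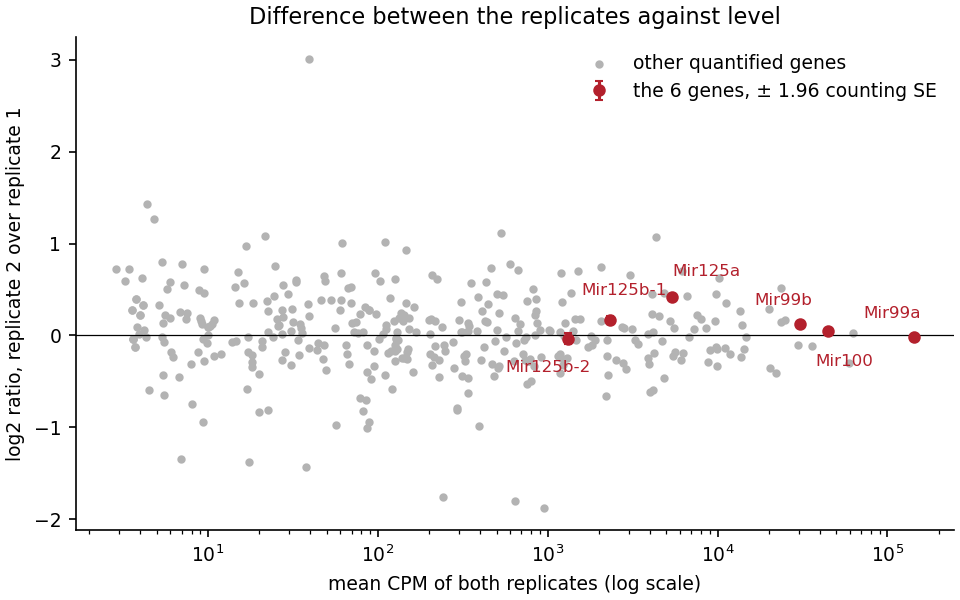
Log2 ratio of replicate 2 over replicate 1 against mean CPM (log axis) for the quantified genes in grey and the 6 genes in red, with bars for the 95% counting interval where they exceed the symbol. The 6 genes lie between -0.03 and 0.42.

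Ratios of cluster partners cancel the library total. Each pair on the same strand within 100 kb was tested by Fisher's exact test, two-sided, adjusted over 731 pairs. Of the 3 member pairs 2 were called, against 45.4% of all pairs. The ratio of Mir99a to Mir125b-2 changed by a log2 value of 0.02 (95% counting interval -0.04 to 0.08), at an adjusted p of 0.738 in the exact test. The ratio of Mir100 to Mir125b-1 was lower in replicate 2 by a log2 value of -0.11 ± 0.02 (counting SE), with an adjusted p of 3.46e-06 in the exact test. That of Mir99b to Mir125a was lower by -0.29 ± 0.02, with an adjusted p of 3.14e-73. The median absolute log2 change over all pairs was 0.23, so the Mir99b pair alone lay above it.

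Mirlet7c-1 and Mirlet7a-2 differed more between replicates than the members beside them. The reads at Mirlet7e differed more than Mir99b and by nearly as much as Mir125a. Mirlet7c-1 had a log2 ratio of 0.36 ± 0.09 and Mirlet7a-2 of 0.59 ± 0.11 (counting SE), from 347 to 595 counts per library. The ratio of Mir99a to Mirlet7c-1 changed by -0.38 ± 0.09 and that of Mir100 to Mirlet7a-2 by -0.54 ± 0.11, with adjusted p of 0.000112 and 3.42e-06 in Fisher's exact test. The reads at Mirlet7e had a log2 ratio of 0.38 ± 0.02 (counting SE). In the same cluster the ratio was 0.42 ± 0.01 for Mir125a and 0.13 ± 0.006 for Mir99b.

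Among the sequence relatives, Mir10a and Mir10b were 1.90-fold and 2.03-fold higher in replicate 2. Mir351 had a log2 ratio of 0.07 ± 0.02, called at an adjusted p of 0.00058 in Fisher's exact test. With DESeq2 size factors the call was lost, at a log2 ratio of 0.04 and an adjusted p of 0.117 in the exact binomial test. Marker lists were read the same way. The Hox cluster list of 5 genes, with Mir196a-1 at 0, summed to 214 CPM in replicate 1 and 400.3 CPM in replicate 2. Mir10a and Mir10b made up 81.2% and 84.8% of the counts of that list, so it repeats their difference. Of the erythroid pair, Mir451a had 373 and 212 CPM and was called lower in replicate 2, while Mir144 had 25.7 and 29.6 CPM and was not called. Endothelial Mir126a had 23434 and 26243 CPM. The brain list had a log2 ratio of 0.04, with 3 genes called higher and 4 lower, and the muscle list one of 0.17 from 241 and 164 counts. Their part in the differences of Mir125a and the other members was not tested.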

How the data were processed

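MicroRNA sequencing counts were used for 2 libraries of 1 group. Per the deposited read-me files, the authors' counts are raw reads per gene, made with mm10 and release M4 of the annotation. Which aligner and counter made them was not given in the sources used here. Per the values of the deposited files, the columns hold reads of either, own and opposite strand, the first being the exact sum of the others, and own-strand counts were used, which made up 97.6% and 97.5% of either-strand counts. Rows naming no gene, such as unmapped and multimapping reads, were 56.9% and 58.2% of reads and stayed out of totals and tests. Symbols and positions came from GENCODE release M21, which held 1894 of the 1973 identifiers, and sequences from RefSeq, which held 345 of the 380 quantified genes.

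Computed here were CPM, means with SD, 95% Wilson intervals and Fisher's exact tests (scipy 1.17.1). The SD is the spread of the 2 libraries. Intervals and tests cover counting error only, and PCR reads are not independent molecules. The labels call the libraries biological replicates from separate pools. Precision follows depth: 1 read was worth 0.216 CPM in replicate 1 and 0.356 CPM in replicate 2. Genes below 10 counts in either library were not tested. Alternatives used edgeR 4.0.16 TMM factors, DESeq2 1.42.0 size factors, other totals, strands, filters and tests. Scripts were tested on simulated data. Named genes are the 6 members, let-7 genes within 100 kb and genes covering them, sharers of a member seed, Mir10 genes, neighbours in level and hosts. Mir92-1 and the leading seed families of the table were named after their values were seen. The members and lists were chosen with earlier results of these data known.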

Additional observations from a re-analysis of the deposited data

Results flagged for a closer look

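Opposite-strand reads, which lie outside the own-strand counts of the main measurement, reached 4262 CPM at the place of Mirlet7e, between Mir99b and Mir125a. They came from 17136 counts in replicate 1 and 13527 in replicate 2, against a floor of 3 counts and no own-strand read there. Groups of 2 libraries are too small for a check on single outlying samples.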

How the results depend on the processing

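Scaling to all reads, unmapped and multimapping included, gave sums of 96463 CPM for the 6 genes, 92625 for the Mir99 and Mir100 genes and 3838 for the Mir125 genes. By cluster it gave 61247 CPM for Mir99a and Mir125b-2, 19971 for Mir100 and Mir125b-1 and 15246 for Mir99b and Mir125a. A total without Mir99a gave, in the same order, 265351, 254779, 10572, 168438, 54945 and 41968 CPM. Counts of either strand gave 221865 CPM for the 6 genes, 213025 for the Mir99 and Mir100 genes and 140832 for the Mir99a cluster. These shifts follow from the size of the total. TMM and DESeq2 factors moved none of these sums beyond the SD. Members called were 5 with TMM factors (53.9% of all genes), on either strand (54.7%), in the binomial test (54.2%) and without a filter, where 26.7% of 746 genes were called. With DESeq2 factors 6 were called, against 52.9% of all genes, and these factors moved the median log2 ratio of all genes from 0.04 to -0.0006. With Mir99a left out of the total, 4 of the other 5 were called, against 54.4% of all genes. Of the 3 member pairs, 2 were called under each alternative, and without a filter 25.4% of all pairs. No paired analysis was possible because the libraries form 1 group. Depth limits Mirlet7c-1 and Mirlet7a-2 more than the 6 members.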
